A study of Mus musculus with 6 samples.

Results

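Cadherins are transmembrane proteins that bind cells to their neighbours through calcium-dependent contacts, and catenins tie their cytoplasmic tails to the actin cytoskeleton. In skin, E-cadherin joins melanocytes to keratinocytes, P-cadherin is enriched in hair follicle epithelium, and N-cadherin is known from melanoblasts, fibroblasts and melanoma cells. The genes described here are 6 cadherins (Cdh1, Cdh2, Cdh3, Cdh11, Cdh13 and Cdh19), 3 catenins (Ctnna1, Ctnnd1 and Jup) and the epithelial adhesion molecule gene Epcam. They were taken from the arrays by the RefSeq accession of each probe, which gave 12 probes for these 10 genes, out of 55681 probes and 21368 named genes in all. Cdh2 and Cdh11 had 2 probes each, and the other 8 genes had 1.

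The samples were melanocyte stem cells from skin of male mice, sorted for GFP fluorescence and low side scatter, 3 from K14-SCF Tg and 3 from WT mice. K14-SCF Tg mice carry a transgene in which the promoter of keratin 14, active in basal keratinocytes, expresses SCF (stem cell factor, which activates the receptor KIT). Cells of both genotypes were selected by the same GFP gate. Strain, age, the GFP driver and any pooling of animals are not given in the sources used here. Each sample was hybridised to its own 1-colour Agilent array, and the labels do not say whether replicates came from separate animals, so every p-value rests on differences between these 6 samples that could be technical.

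A level is the log2 of a probe's processed signal over its array's 75th percentile, and a log2 fold change is K14-SCF Tg minus WT. Levels of different probes are not read as relative amounts of transcript, because each probe has its own response. Sums of markers, shares of a sum and words such as bright or dim describe probe signal only. A probe was tested by limma if the scanner software flagged it well above background on 3 or more arrays, and p-values were adjusted over all 47709 such probes by the Benjamini-Hochberg method, with a threshold of 0.05. The share of probes so flagged ran between 78.4% and 87.1% per array, with 0 saturated. The melanocyte markers Dct, Tyr and Tyrp1 were above background on every array, as were the other 8 of the 11 markers on that list. The array of WT replicate 1 was the only one on its slide, which was scanned on another day, and replicate 3 of each genotype lay in row 2 of the second slide.

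All 10 genes were expressed above background in the sorted cells of both genotypes. The brightest tested probe of each was above background on 6 of 6 arrays, which held for 87.9% of all tested genes. Of the 12 probes 11 were, against 73.6% of all probes, and the exception was the other Cdh11 probe, above background on 0 of 6 arrays. None of the 10 genes passed the test between the genotypes. By limma, 0 of the 11 tested probes had an adjusted p under 0.05, against 0.0021% of all probes (1 probe). Likewise 0 of 10 genes had an adjusted p under 0.05, against a share of 0.00544% of all 18368 genes (1 gene), and 0 of 10 had an unadjusted p under 0.05, against 5.41% of all genes. Adjusted p-values of the 10 lay between 0.918 and 1.00 (limma). Log2 fold changes were negative for 7 genes and positive for 3, where 51.4% of all genes were negative. Their median was -0.15, against -0.01 over all genes. With 3 arrays in each group the data bound these differences rather than exclude them: every one of the 10 intervals (95%, unadjusted) included 0, and 2 of them, those of Cdh1 and Ctnna1, lay within 1 log2 unit on either side.

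**Figure D1:**
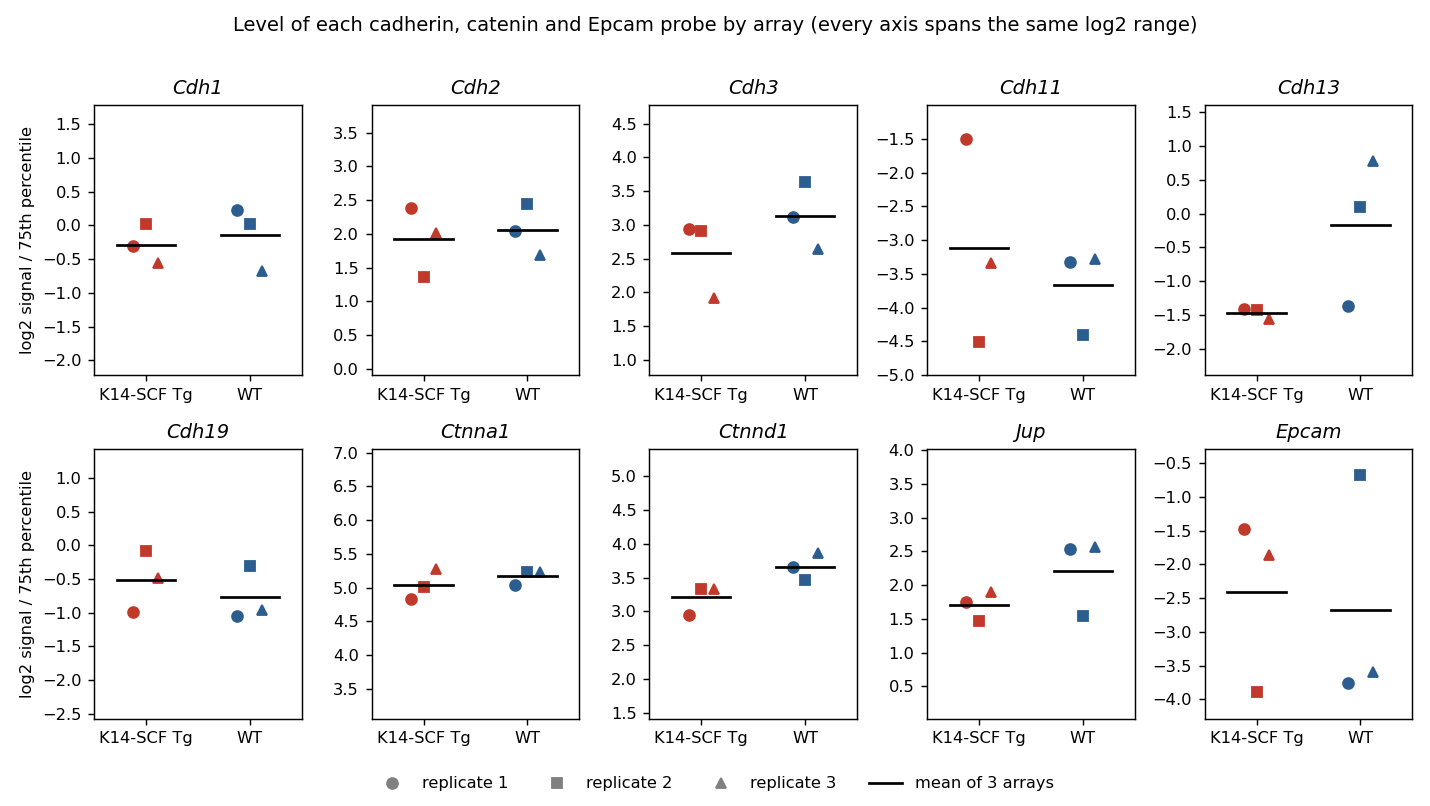
Levels of the 10 genes (brightest tested probe of each) on the 3 K14-SCF Tg arrays (red, left) and the 3 WT arrays (blue, right), as log2 signal over the array's 75th percentile, with the mean as a black line and the replicate number as the symbol. The genotypes do not overlap in Cdh13 and Ctnnd1, and Epcam and Cdh11 vary most between arrays of 1 genotype.

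The classical cadherins were measured first. Cdh1, which encodes E-cadherin, stood at -0.31, 0.01 and -0.56 on K14-SCF Tg arrays 1 to 3 and at 0.23, 0.03 and -0.67 on WT arrays 1 to 3. The genotypes overlapped, with the lowest value of each on replicate 3. Its log2 fold change was -0.15 (SE 0.33, limma adjusted p = 0.999), and the interval ran between a fold of 0.517 and 1.58. Cdh3, the P-cadherin gene, stood at 2.94, 2.91 and 1.91 in K14-SCF Tg and at 3.12, 3.63 and 2.64 in WT. Again the genotypes overlapped and replicate 3 was lowest in both. The means were 2.59 ± 0.58 in K14-SCF Tg and 3.13 ± 0.50 in WT (SD, n = 3 each), a log2 fold change of -0.54 (SE 0.41, limma adjusted p = 0.976).

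Cdh2 encodes N-cadherin, the cadherin of mesenchymal and neural cells. Its brighter probe read 2.38, 1.36 and 2.01 in K14-SCF Tg and 2.05, 2.45 and 1.69 in WT, and the dimmer one 0.98, 0.54 and 1.30 in K14-SCF Tg and 0.45, 1.14 and 0.94 in WT. Both probes had overlapping genotypes, and their log2 fold changes differed in sign, -0.14 (SE 0.36) for the brighter probe and 0.09 (SE 0.32) for the dimmer. The difference between Cdh2 and Cdh1 on the same array, which does not depend on the scaling between arrays, averaged 2.20 ± 0.74 in K14-SCF Tg and 2.20 ± 0.33 in WT (SD, n = 3 each, log2 units), 0.01 apart. An exact permutation test over the arrays, 2-sided, gave p = 1 for this, where 0.1 is the smallest p that 3 against 3 arrays allow. The same difference for Cdh3 and Cdh1 averaged 2.87 ± 0.39 in K14-SCF Tg and 3.27 ± 0.36 in WT (exact permutation p = 0.3, and 0.6 after adjustment over the 3 pairs computed).

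**Figure D2:**
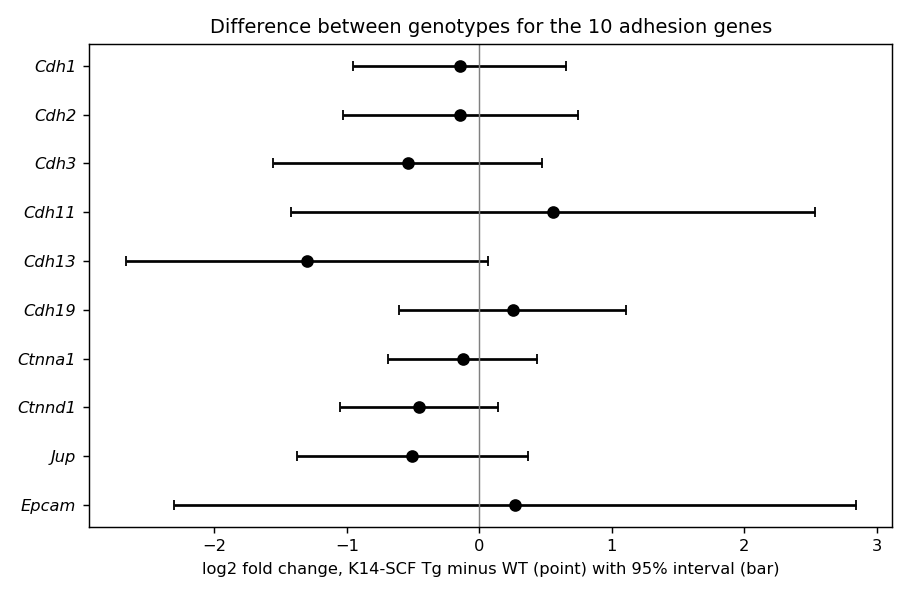
Log2 fold change of each gene, K14-SCF Tg minus WT (point), with its unadjusted 95% interval from limma (bar). All 10 intervals include 0, the narrowest belongs to Ctnna1 and the widest to Epcam.

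Cdh1 and Cdh3 are next to each other among the coding genes of mouse chromosome 8 in the RefSeq table, and both were lowest on replicate 3 of each genotype. Those arrays lay in row 2 of the slide, and row and replicate number cannot be told apart. With the row as a term, row 2 minus row 1 was -0.87 (SE 0.25, limma unadjusted p = 0.0194, adjusted p = 0.427) for Cdh3. For Cdh1 it was -0.61 (SE 0.24, limma unadjusted p = 0.0554, adjusted p = 0.509). No probe of the array passed for the row (limma, 0 of 47709, 0%), and 11.4% of all genes had an unadjusted p under 0.05 for it, as did 1 of the 10 genes here. The genes whose profile over the 6 arrays lay nearest to that of Cdh1, by root mean square distance of mean-centred log2 levels, were Crlf3 (0.062), Slc50a1 (0.070) and Lhx8 (0.081), where the median gene lay at 0.56. Lhx8 was close to background: its level of -6.22 on WT replicate 3 lay below the lowest flagged level of that array, -5.75. Among the other genes described here Cdh3 was nearest to Cdh1, at 0.363, ranked 2886 of 18367 genes, and Epcam farthest, at 1.34. The levels were not scaled to equal spread, so a gene's own spread adds to its distance (pooled SD of Epcam 1.53).

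The other cadherins of the set are Cdh11, Cdh13 and Cdh19, which occur in cells derived from the neural crest. Cdh13 encodes T-cadherin, which is held by a lipid anchor and lacks a catenin-binding tail, and is known from endothelium and smooth muscle. It had the smallest p of the 10 genes and stood at -1.41, -1.42 and -1.56 in K14-SCF Tg and at -1.36, 0.10 and 0.78 in WT. The genotypes did not overlap, but WT replicate 1 lay only just above the K14-SCF Tg arrays, while the other WT arrays stood higher. The means were -1.46 ± 0.08 in K14-SCF Tg and -0.16 ± 1.10 in WT (SD, n = 3 each), a log2 fold change of -1.30 (SE 0.56, limma unadjusted p = 0.0586, adjusted p = 0.918). The interval ran between a fold of 0.157 and 1.05. Within the slide that holds both genotypes, which leaves out WT replicate 1, the log2 fold change of Cdh13 was -1.90 (limma, adjusted p = 0.520), and without both arrays of row 2 it was -0.78.

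Sums of markers of other skin cells stand beside the Cdh13 values. The 10 endothelial and pericyte markers, all tested, summed to between 2.97 and 4.44 in K14-SCF Tg and between 4.18 and 6.69 in WT (signal over the 75th percentile). The highest sums, 6.69 and 4.95, were on the WT arrays 3 and 2 that also held the highest Cdh13. Kdr made up 26.7% to 56.7% of that sum. The other 9 summed to 2.16, 2.75 and 1.29 in K14-SCF Tg and to 2.68, 3.02 and 4.91 in WT. Single markers differed: Egfl7 and Vwf were highest on WT replicates 3 and 2. Pecam1, Esam and Cldn5 were highest on WT replicate 3 (0.38, 0.20 and -0.80), but Pecam1 was lowest on WT replicate 2 (-4.66). Rgs5 was highest on WT replicate 1 (-0.82), and Pdgfrb was lowest on WT replicate 3 (-5.31). Tek and Cspg4 were highest on K14-SCF Tg replicates 3 and 2 (-3.87 and 0.18). The 12 fibroblast markers, all tested, summed to 23.5, 12.0 and 11.5 in K14-SCF Tg and to 74.7, 49.0 and 29.7 in WT. Every K14-SCF Tg array was thus lower in this sum, of which Col1a2 made up 36.1% to 51.6%. The median log2 fold change of the 12 was -1.61, but the markers did not all fall. Fap gave 2.19 (SE 0.91), Pdgfra 1.26 (SE 0.97) and Fbn1 0.17 (SE 0.73). Pdgfra was close to background, flagged above it on 2 of 3 arrays of each genotype. Among the WT arrays the fibroblast sums ran opposite to Cdh13, highest on replicate 1 and lowest on replicate 3. Their part in the Cdh13 values was not tested, and in sorted bulk samples fewer cells of a type and less RNA per cell cannot be told apart.

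**Figure D3:**
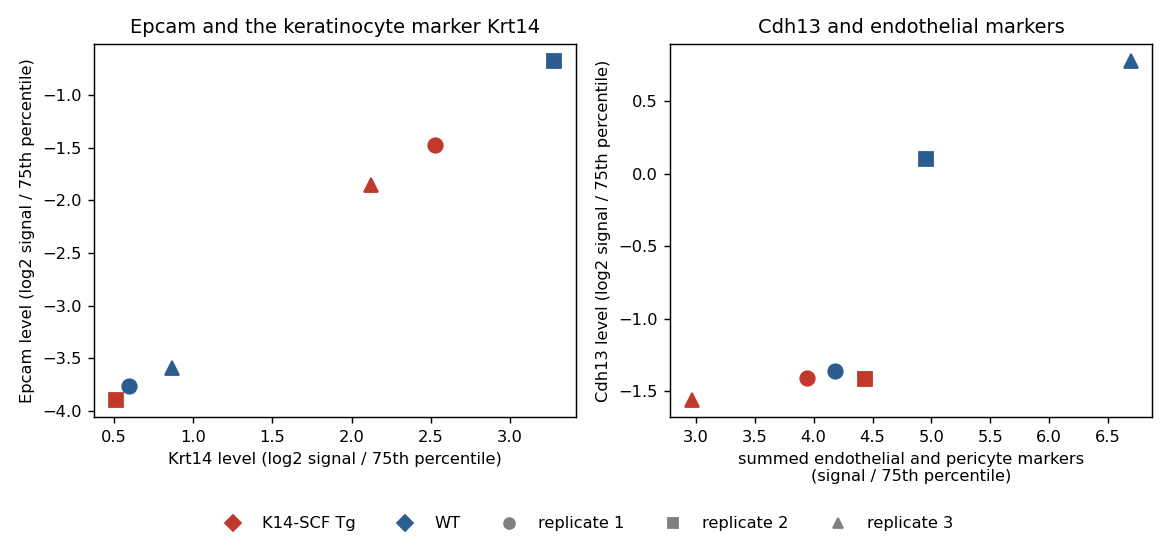
Left, Epcam level against the level of the keratinocyte marker Krt14 on the 6 arrays. Right, Cdh13 level against the summed signal of 10 endothelial and pericyte markers. K14-SCF Tg arrays are red, WT arrays blue, and symbols give the replicate. The arrays take the same order in Epcam as in Krt14, and WT replicates 2 and 3 are highest on both axes for Cdh13.

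Cdh11, the cadherin of mesenchymal cells and bone-forming cells, was dim and variable. Its detected probe read -1.50, -4.51 and -3.34 in K14-SCF Tg and -3.33, -4.41 and -3.28 in WT. K14-SCF Tg replicate 1 stood above all other arrays, and the rest overlapped. The log2 fold change of 0.56 (SE 0.81, limma adjusted p = 0.990) rested on that array, since without it the value was -0.25. K14-SCF Tg replicate 1 also had the highest fibroblast marker sum of its genotype, 23.5, though below the WT sums of 29.7 to 74.7. The part of fibroblasts in the Cdh11 values was not tested.

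Cdh19, known as a gene of Schwann cell precursors and of the melanocyte lineage, stood at -0.99, -0.09 and -0.48 in K14-SCF Tg and at -1.05, -0.31 and -0.95 in WT. The genotypes overlapped, with replicate 2 highest in both. Its log2 fold change was 0.25 (SE 0.35, limma adjusted p = 0.990), with an interval between a fold of 0.658 and 2.16.

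Of the 10 genes, the catenin genes Ctnna1 and Ctnnd1 had the smallest spread within genotype, with pooled SDs of 0.18 and 0.21 (log2). Ctnna1 encodes alpha-catenin, which couples the cadherin complex to actin. It stood at 4.84, 5.01 and 5.28 in K14-SCF Tg and at 5.04, 5.23 and 5.23 in WT. The genotypes overlapped, and the log2 fold change was -0.13 (SE 0.23, limma adjusted p = 0.996). The interval ran between a fold of 0.621 and 1.35, the narrowest of the 10. Its pooled SD lay at percentile 9.33 of all tested genes, and at percentile 21.1 in the highest of 4 equal bins of genes by level.

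Ctnnd1 encodes a catenin that binds the membrane-near part of the cadherin tail and keeps cadherins at the cell surface. It stood at 2.95, 3.33 and 3.34 in K14-SCF Tg and at 3.65, 3.46 and 3.87 in WT. Every K14-SCF Tg array lay below every WT array. The means were 3.21 ± 0.22 in K14-SCF Tg and 3.66 ± 0.21 in WT (SD, n = 3 each), a log2 fold change of -0.45 (SE 0.24, limma adjusted p = 0.946), which did not pass. Its interval ran between a fold of 0.482 and 1.10. Without any 1 array the log2 fold change of Ctnnd1 lay between -0.56 and -0.33. Cdh13 and Ctnnd1 made 2 of 10 genes whose genotypes did not overlap, both lower in K14-SCF Tg, where 10.5% of all genes did not overlap, 5.41% lower and 5.13% higher in K14-SCF Tg.

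Jup encodes plakoglobin, a catenin of both adherens junctions and desmosomes. It stood at 1.75, 1.47 and 1.89 in K14-SCF Tg and at 2.53, 1.54 and 2.57 in WT. WT replicates 1 and 3 lay above the other 4 arrays, and WT replicate 2 lay among the K14-SCF Tg arrays. The log2 fold change was -0.51 (SE 0.36, limma adjusted p = 0.972). On the same array, Jup minus Ctnna1 averaged -3.34 ± 0.23 in K14-SCF Tg and -2.96 ± 0.64 in WT (SD, n = 3 each, exact permutation p = 0.4, and 0.6 after adjustment over the 3 pairs).

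Epcam encodes an adhesion molecule of epithelial cells that is found in keratinocytes of the hair follicle and in Langerhans cells. It varied more between arrays of 1 genotype than any other gene of the set. The levels were -1.47, -3.90 and -1.86 in K14-SCF Tg and -3.76, -0.68 and -3.59 in WT. Each genotype thus held both high and low arrays, and the 2 ranges overlapped almost throughout. The log2 fold change was 0.27 (SE 1.05, limma adjusted p = 1.00), the interval ran between a fold of 0.202 and 7.18, and the pooled SD of 1.53 lay at percentile 93.8 of all tested genes. Its sign turned within the slide that holds both genotypes, where it was -0.27.

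Krt14, a keratin of basal keratinocytes, took the same order over the 6 arrays as Epcam. Its levels were 2.52, 0.51 and 2.12 in K14-SCF Tg and 0.60, 3.28 and 0.86 in WT. Krt5 and Krt15, the keratins listed beside Krt14, shared the highest array and the next one with Epcam but not the full order. Krt5 read 0.69, -0.39 and -0.02 in K14-SCF Tg and 0.50, 0.69 and 0.16 in WT, and Krt15 read 1.39, 0.15 and -0.89 in K14-SCF Tg and 1.18, 1.52 and 0.40 in WT. The 12 keratinocyte markers, all tested, summed to between 133.9 and 143.6 in K14-SCF Tg and between 114.9 and 146.6 in WT. The probe of Trp63, an epidermal transcription factor, made up 88.5% to 96.6% of that sum. The other 11 markers summed to 11.6, 4.51 and 7.61 in K14-SCF Tg and to 6.65, 15.5 and 5.42 in WT, highest on WT replicate 2 and next on K14-SCF Tg replicate 1, as for Epcam. That order came with Krt14: without it, the other 10 markers summed to 5.84, 3.08 and 3.27 in K14-SCF Tg and to 5.14, 5.80 and 3.60 in WT. In these, both WT arrays low in Epcam lay above K14-SCF Tg replicate 3. Of these markers, Sfn was higher on WT replicate 2 and K14-SCF Tg replicates 1 and 3 (-1.21, -1.07 and -1.09) than elsewhere, like Epcam. Krt17, however, was low on WT replicate 2 (-5.06). Among desmosome genes, Perp was highest on WT replicate 2 (2.07) and next on K14-SCF Tg replicate 1 (0.87). Dsg3 was lowest on WT replicate 2 (-5.59). The Langerhans cell gene Cd207 stood between -2.76 and -2.56 in K14-SCF Tg and between -2.96 and -2.71 in WT, a range under 1 log2 unit and without the Epcam order. Of the 10 Langerhans and dendritic cell markers, 9 were tested. They summed to 9.17, 10.7 and 11.5 in K14-SCF Tg and to 8.79, 12.7 and 11.3 in WT. The highest sum was on WT replicate 2, as for Epcam, and the next on K14-SCF Tg replicate 3. Mfge8 made up 39.2% to 60.9% of that sum. The other 8 summed to 4.22, 4.44 and 4.47 in K14-SCF Tg and to 4.24, 7.72 and 5.26 in WT. Again WT replicate 2 was highest, but WT replicate 3, low in Epcam, was next. Cd74, which is part of this sum, was highest on the same arrays (1.97 and 1.03) and at most -0.44 on the others. The sum without Cd74 was not computed, so its order may rest on that gene. Of 7 Merkel cell markers, 4 were tested (Krt8, Atoh1 and Isl1 were not), summing to between 0.604 and 0.900 in K14-SCF Tg and between 0.640 and 1.12 in WT. Krt18 alone made up 52.3% to 82.3% of the Merkel cell sum. The part of these cells in the Epcam values was not tested.

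Promoter sequences in the RefSeq table of build GRCm38.p6 were matched by symbol for 3 of the 10 genes, Ctnnd1, Jup and Epcam. The motif CAGGTG and its reverse complement CACCTG, the E-box form known to be bound by SNAI and ZEB repressors of Cdh1, were searched on both strands in the 250 bases before each start. Epcam is shown because it varied most and was the only one of these genes with a match, and Ctnnd1 because its genotypes did not overlap. Ctnnd1 had another entry, at chr2:84650741-84650990 (minus strand), also without a match, which is not printed. The motif is in capitals, and the sequences run 5′ to 3′ on the gene's strand, at chr17:87635729-87635978 (plus strand) for Epcam and chr2:84658978-84659227 (minus strand) for Ctnnd1.
Epcam: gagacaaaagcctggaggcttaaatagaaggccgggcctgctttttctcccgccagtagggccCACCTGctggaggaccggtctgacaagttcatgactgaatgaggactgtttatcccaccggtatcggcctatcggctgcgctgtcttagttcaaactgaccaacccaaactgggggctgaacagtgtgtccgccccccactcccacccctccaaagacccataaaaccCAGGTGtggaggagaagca
Ctnnd1: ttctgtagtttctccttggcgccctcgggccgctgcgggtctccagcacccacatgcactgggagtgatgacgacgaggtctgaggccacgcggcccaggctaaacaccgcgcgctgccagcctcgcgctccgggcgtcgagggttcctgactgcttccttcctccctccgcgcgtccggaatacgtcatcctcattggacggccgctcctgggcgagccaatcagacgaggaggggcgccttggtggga
The Epcam window held the motif 2 times, starting 187 and 19 bases before the start of the gene. At least 1 match was present in 17.2% of all 32851 promoters of the table, and 2 or more in 2.06%. A match is a description of these letters and does not show a site in use.

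**Figure D4:**
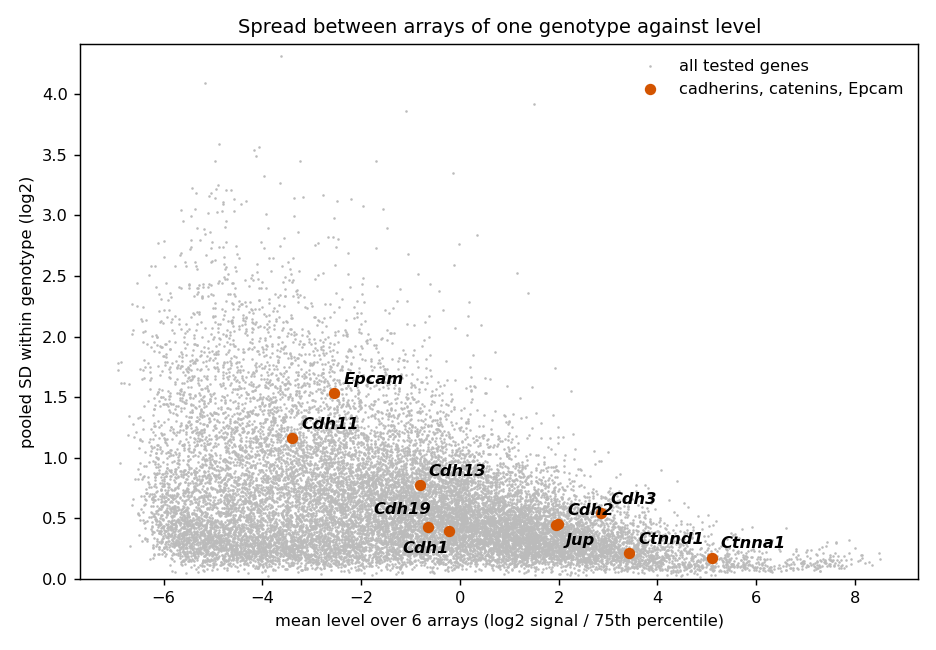
Pooled SD within genotype (log2) against mean level over the 6 arrays for all 18368 tested genes (grey) and the 10 genes described here (orange). Ctnna1 and Ctnnd1 lie low at high levels, and Epcam and Cdh11 lie high at low levels.

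Spread between arrays of 1 genotype differed widely within the set. The pooled SD was above the median of all genes, 0.49, in 4 of the 10 genes (Cdh3, Cdh11, Cdh13 and Epcam). Within its bin of genes of like level, Cdh3 lay at percentile 84.3 and Cdh1 at percentile 30.0, so the P-cadherin probe varied more than most genes of its brightness and the E-cadherin probe less. The detected Cdh11 probe had a spot intensity between 2.94 and 13.6 times its local background, and Epcam between 3.90 and 23.8 times, whereas Ctnna1 lay between 917 and 1543 times.

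Other genes of adhesion were followed in 6 lists, and none of their members passed. By limma, 0 genes rose and 0 fell in each list, and the smallest adjusted p in any of them was 0.664. An unadjusted p under 0.05 was found for 3 adherens junction partners, 1 other cadherin and 1 repressor of Cdh1, and for 0 genes of the other 3 lists. That makes 5 of 86 tested genes, or 5.81%, against 5.41% of all genes. The median of each list changed sign in at least 1 of 18 other fits. The 20 adherens junction partners (19 tested, median log2 fold change 0.03) included Pkp4, a junction plaque protein related to Ctnnd1. It stood at 1.60, 1.63 and 2.01 in K14-SCF Tg and at 2.58, 2.15 and 2.90 in WT, a log2 fold change of -0.80 (SE 0.29, limma unadjusted p = 0.0322). All 3 K14-SCF Tg values of Pkp4 lay below the WT values, as for Ctnnd1. Nectin4, an adhesion molecule of epithelia, gave 1.81 (SE 0.66), but was above background on 3 of 3 K14-SCF Tg and 1 of 3 WT arrays.

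Among 17 other cadherins (14 tested, median -0.09), Cdh4, the R-cadherin gene, had the smallest p of these and of the 6 cadherins above. It stood at -3.37, -2.33 and -3.45 in K14-SCF Tg and at -1.72, -1.73 and -1.41 in WT. The genotypes did not overlap, and the log2 fold change was -1.43 (SE 0.37, limma unadjusted p = 0.00811, adjusted p = 0.664). The other Cdh4 probes gave -2.46 (SE 1.65) and -0.40 (SE 0.61), both with overlapping genotypes. Cdh6, a cadherin of kidney and neural crest, gave 0.96 (SE 0.56) at its brighter probe and -1.11 (SE 0.68) at the other.

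The 12 transcription factors known to repress Cdh1 (11 tested, median 0.15) held 1 gene with an unadjusted p under 0.05, where 5.41% of all genes had one. Their median was negative without any 1 of the arrays other than K14-SCF Tg replicate 1 (-0.18 to -0.05), and 0.20 without that one. Snai1, a zinc finger repressor, stood at -6.27, -4.16 and -5.06 in K14-SCF Tg and at -2.83, -3.20 and -3.09 in WT. All K14-SCF Tg arrays were lower, and Snai1 was above background on 2 of 3 of them and on 3 of 3 WT arrays. Its log2 fold change was -2.12 (SE 0.55, limma unadjusted p = 0.00835, adjusted p = 0.666). Snai3, of the same family, had the opposite sign, 1.36 (SE 0.57), also without overlap of the genotypes. Neither Snai1 nor Snai3 passed, and Cdh1 itself differed by -0.15.

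Desmosome genes (13 listed, 12 tested) had a median log2 fold change of 0.32, which was 0.09 without K14-SCF Tg replicate 1, 0.09 without WT replicate 3 and -0.09 without both row 2 arrays, with the desmosomal cadherin Dsg2 at 0.95 (SE 0.56) and the cornified envelope gene Evpl at -0.48 (SE 0.26). Regulators of cadherin turnover and signalling (21 listed, 20 tested) had a median of -0.09, with the endocytic adaptor Numb at 0.35 (SE 0.28) and Zbtb33, whose protein binds the Ctnnd1 product, at -0.28 (SE 0.24). Partners of Epcam and tight junction genes (13 listed, 10 tested) had a median of 0.01. Cldn7, a claudin that binds the Epcam protein, stood between 0.36 and 0.88 in K14-SCF Tg and between 0.65 and 0.86 in WT, without the wide spread of Epcam. F11r, a junction adhesion molecule, gave -1.72 (SE 1.26) with overlapping genotypes.

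**Figure D5:**
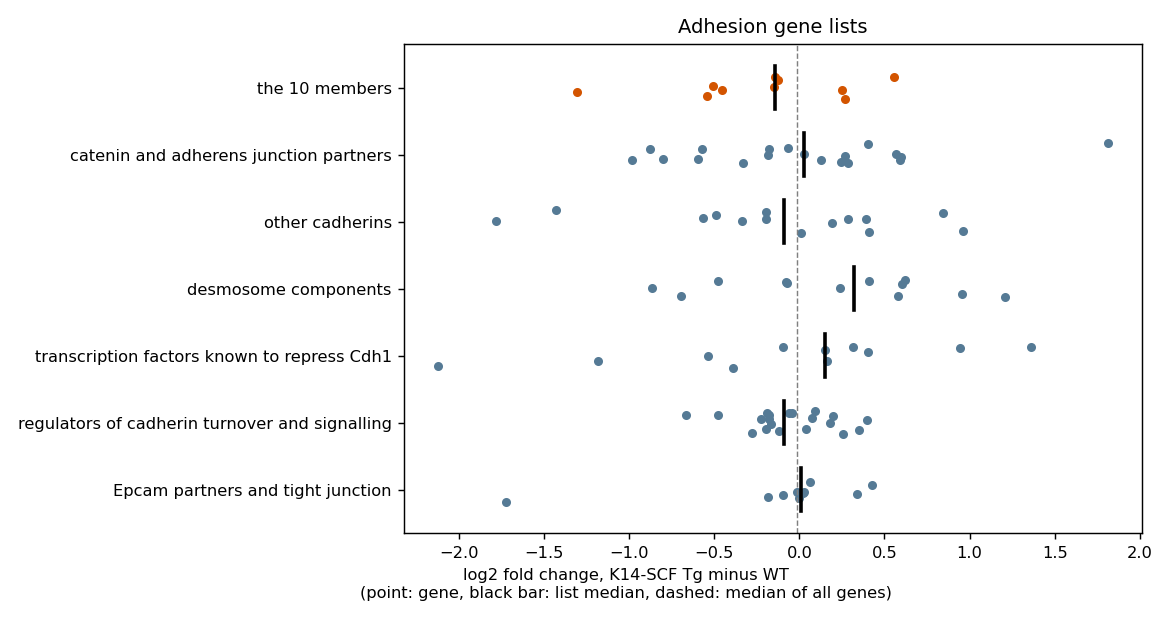
Log2 fold change, K14-SCF Tg minus WT, of each tested gene in the set of 10 and in 6 lists of adhesion genes, with the list median (black bar) and the median of all genes, -0.01 (dashed). List medians lie between -0.15 and 0.32, and no gene shown passed limma's test.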

How the data were processed

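Amplified cDNA of sorted cells was labelled with Cy3 and hybridised to 1 array per sample (3 K14-SCF Tg, 3 WT), per the labels' protocols. Per the file headers, the intensity values are Agilent Feature Extraction 10.7.1.1 processed signals, from which background and a spatial trend were removed, with no scaling across arrays, and raw median intensities stand beside them. The flags per spot are 0 or 1 and were taken as deposited. The authors also deposited a table of linear ratios, the processed signal over 1 constant per array, used as an alternative.

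Outlier spots and control spots were left out, spots of a probe were averaged, and log2 levels were set relative to the array's 75th percentile. Of 55681 probes, 47709 were well above background on at least 3 arrays. Probes were named by RefSeq accession (28331 of 29786 matched, assembly GRCm38.p6; the array design refers to mm9). Each of 18368 genes took the values of its brightest tested probe (mean over 6 arrays). K14-SCF Tg and WT were compared by limma 3.58.1 in R 4.3.3 (no covariates, 2-sided, Benjamini-Hochberg over all tested probes); the steps were tested on simulated data. Residual degrees of freedom were 4, and the prior's 1.91. The number of arrays limits the precision.

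Named from the lists were, by rule, the 2 tested genes with the smallest p of each and the 3 genes nearest to Cdh1. Up to 3 markers per list were named in the order written. Trp63 and the 3 untested Merkel cell genes were named, and Krt14 plotted, after their values were seen. The same holds for Mfge8, Krt18, Col1a2, Pdgfra, Fap, Fbn1, Kdr, Pecam1, Rgs5, Egfl7 and Vwf, which were named after their values were seen. It also holds for Esam, Cldn5, Pdgfrb, Tek, Cspg4, Sfn, Krt17, Perp, Dsg3 and Cd74. The members and lists were chosen with earlier results of these data known. The pairs compared on the same array, the row term, the fit without row 2 and the keratinocyte sum without Krt14 were added after seeing the data. Same-numbered arrays of the genotypes did not share deviations from their group means in every pair (correlations over probes of 0.02, 0.05 and 0.13), so replicate numbers were not used as pairs. The Schwann cell marker list is not reported here.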

Additional observations from a re-analysis of the deposited data

How the results depend on the processing

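In 18 other fits (normalization, deposited values, normexp with quantile normalization, filters, slide, slide row, replicate block, variance model, mean of probes, each array left out in turn, and no row 2 arrays), 0 of the 10 genes passed, with a smallest adjusted p of 0.520 (limma, Cdh13). The 6 lists also held 0 called genes in each. Direction held in all 18 fits for Cdh3, Cdh13, Cdh19, Ctnna1, Ctnnd1 and Jup, but leaving out 1 array moved most of them by over 1.5 times (Cdh3 -0.79 to -0.20, Cdh13 -1.90 to -0.83, Cdh19 0.037 to 0.49, Ctnna1 -0.25 to -0.024, Ctnnd1 -0.56 to -0.33, Jup -0.84 to -0.33). It turned for Cdh1 with slide as a block (0.036), which equals leaving out WT replicate 1, and for Epcam with slide as a block (-0.27) and without row 2 (-0.47). Leaving out each array in turn gave -0.41 to 0.036 for Cdh1, -0.37 to 0.13 for Cdh2, -0.25 to 1.25 for Cdh11 and -0.27 to 1.27 for Epcam. The cause was not tested. With the replicate block the estimates were as without it (Cdh1 -0.15, Cdh13 -1.30, adjusted p between 0.785 and 0.991), and arrays did not all correlate best with their own number. The 1 probe of the array called, outside these genes, fell to 0 with normexp and quantile normalization, with the filter on all 6 arrays, with slide, row or replicate as a term, with trend and robust variance, without row 2, and without any 1 array (0 to 0). The list medians lay between -0.09 and 0.40 for desmosome genes and between -0.18 and 0.20 for repressors of Cdh1. Median centring shifted the median of all genes by -0.09. Among the detected probes of the 10 genes, spot intensity over local background reached its lowest values in Cdh11 (2.94) and Epcam (3.90).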

Other observations

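Of the other adhesion genes, Cdh5, the endothelial cadherin gene, and Dsp, which links desmosomes to keratin filaments, were chosen after their values were seen. Cdh5 stood at -7.82, -3.10 and -6.96 in K14-SCF Tg and at -4.91, -4.36 and -3.26 in WT, and was above background on 1 of 3 K14-SCF Tg and 3 of 3 WT arrays. Its log2 fold change was -1.78 (SE 1.27, limma adjusted p = 0.972), with the highest single value in K14-SCF Tg. Dsp stood at -3.15, -5.15 and -1.85 in K14-SCF Tg and at -3.55, -3.27 and -6.96 in WT, a log2 fold change of 1.21 (SE 1.27, limma adjusted p = 0.988), while its other tested probe had the opposite sign, -0.54 (SE 1.37). Neither passed, and in both the arrays of 1 genotype spanned over 3 log2 units.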
